A study of Mus musculus with 6 samples.

Results

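Glycolysis and the pentose phosphate pathway were followed through 33 genes in regulatory T cells (Tregs), the T cells that hold immune responses in check. The genes were chosen by name for their place in these pathways, and a gene was read from the probe set listed under its symbol alone with the highest mean. Of the 33, 29 could be read in this way. Gapdh was listed alone only in control probe sets, which are described without a test. Gpi1, Eno1 and G6pdx were not analysed here. The whole comparison covered 18193 genes.

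Each of 6 Affymetrix M430v2 arrays held RNA from the spleen of 1 female NOD mouse, a strain prone to autoimmune diabetes. The T cell receptor transgene BDC2.5, which recognises an islet antigen, was present in every mouse, as was the Foxp3GFP reporter. The cells were sorted as CD4+ and GFP+, and as negative for B220, CD8a and CD11b/c. The 3 treated mice were RAG1o/o, so that they could rearrange no receptor of their own. They received 37.5 µg of the anti-CD3 antibody KT3 intravenously on 5 consecutive days from day 17 of age. Cells of treated replicates 1 and 2 were taken at 29 days of age, labelled as 12 days after treatment. Those of treated replicate 3 were taken at 28 days of age, labelled as 11 days after treatment. The 3 untreated mice were RAG1+/o, with 1 working RAG1 copy, and were 29 (replicate 1) or 28 (replicates 2 and 3) days old. Antibody and RAG1 genotype cannot be told apart in this comparison.

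In glycolysis, glucose enters the cell through GLUT transporters, is trapped by hexokinases and is split into pyruvate. Pyruvate is then reduced to lactate or passed to the mitochondrial pyruvate dehydrogenase complex. The pentose phosphate branch takes glucose 6-phosphate to make NADPH and ribose for nucleotides. Conventional T cells raise glycolysis when activated, largely through mTOR, Myc and HIF-1. Foxp3-expressing cells are known to lean more on oxidative metabolism, although dividing Tregs also use glycolysis.

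HIF-1, whose oxygen-regulated subunit is encoded by Hif1a, binds a short core, ACGTG, in the promoters of many glycolytic genes. The following stretches of promoter are shown because they hold that core in members described below. They come from RefSeq (build GRCm38.p6), read 5′ to 3′ on the strand of the gene. Capitals mark ACGTG or its reverse complement CACGT. The Slc16a3 stretch is chr11:120949007-120949066 and that of Slc2a1 is chr4:119108685-119108744, both on the plus strand. The Hk2 stretch is chr6:82774455-82774514 and that of Pfkfb3 is chr2:11502091-11502150, both on the minus strand. The Ldha stretch is chr7:46845744-46845803 on the plus strand. These 5 run from -60 to -1 relative to the transcription start, and the Pgk1 stretch, chrX:106186940-106186999 on the plus strand, lies further upstream.
Slc16a3: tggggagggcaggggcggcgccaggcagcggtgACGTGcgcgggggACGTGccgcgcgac
Slc2a1: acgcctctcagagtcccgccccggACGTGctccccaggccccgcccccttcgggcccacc
Hk2: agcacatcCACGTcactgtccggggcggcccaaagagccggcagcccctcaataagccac
Pfkfb3: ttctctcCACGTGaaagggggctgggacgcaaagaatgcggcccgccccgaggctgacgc
Ldha: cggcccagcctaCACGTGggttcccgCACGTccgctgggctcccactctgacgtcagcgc
Pgk1: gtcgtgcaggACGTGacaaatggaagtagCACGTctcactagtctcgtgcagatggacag

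Promoter sequences of 300 bases, from 250 before to 50 after the start, were found for 32 of the 33 members, all but Slc2a3. ACGTG on either strand was present for 18 of these 32 genes (56.2%), against 26.1% of the 14452 genes on the arrays with a promoter sequence. The variant core GCGTG was present for 22 (68.8%, against 47.8%), and CACGTG, which contains ACGTG, for 5 (15.6%, against 10.2%). A gene was counted if any of its promoter sequences held the motif. Over the 46 promoter sequences of members, ACGTG was present in 45.7%, against 22.9% of the 18109 of genes on the arrays. By the same count GCGTG was present in 58.7% against 43.3%, and CACGTG in 10.9% against 8.7%. These matches describe letters and not binding. Among the members with a value on the arrays, the 16 with ACGTG had a median difference of 0.02 between treated and untreated Tregs on the log2 scale, and 9 of them lay above 0. The 12 without it had a median of 0.11 with 7 above 0. The ranges were -0.48 to 0.49 and -0.48 to 0.92.

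Glycolytic and pentose phosphate transcripts of treated Tregs could not be distinguished from those of untreated Tregs in any member after adjustment over all genes. Limma called 0 of the 29 members higher and 0 lower at an adjusted p of 0.05, and the share of all genes called was 0% in either direction. At an unadjusted p under 0.05, 1 member was higher, beside 1.82% of all genes, and 0 were lower, beside 3.17% of all genes. Of the 29, 17 had a difference above 0 (58.6%, against 58.5% of all genes) and 12 below (against 41.5%), and their median was 0.05, as was that of all genes. This balance depended on single arrays. Without treated replicate 2, 20 of 29 members lay above 0 with a median of 0.30, against 50.5% of all genes and a median of 0.0032. Without treated replicate 3, 12 lay above 0 with a median of -0.10, against 56.6% of all genes and a median of 0.05. Without untreated replicate 2, 20 lay above 0 with a median of 0.09, against 58% of all genes and a median of 0.05. Differences, given throughout as treated minus untreated on the log2 scale, ran from -0.48 for Pdk1 to 0.92 for Pfkfb4. The 3 treated values lay above all 3 untreated ones for Slc2a1, Tpi1 and Slc16a3, beside 5.61% of all genes, and below them for Pdha1, beside 5.24%. With 3 mice a group the intervals were wide, so that for Pfkfb4 the 95% interval ran from -0.43 to 2.27.

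**Figure D1:**
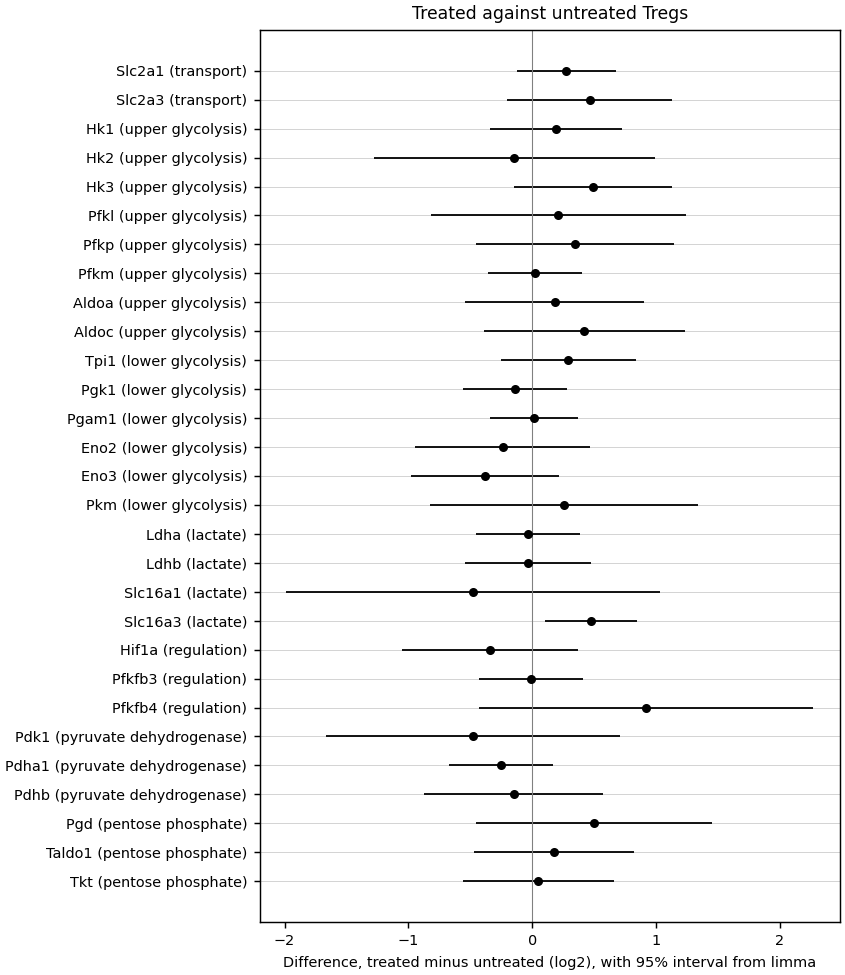
Differences between treated and untreated Tregs for the 29 measured members, as points with 95% intervals from limma (3 arrays per group), in log2 units and with the role of each gene in parentheses. The interval of Slc16a3, from 0.10 to 0.85, is the only one that lies wholly on one side of 0, and it is not adjusted for the number of genes.

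Both glucose transporters had higher means in treated Tregs, short of the test. For these and the following genes, the lowest and highest difference found when each array was left out in turn are given where they move the value by more than 1.5 times. Slc2a1, encoding GLUT1, measured 8.96, 9.02 and 9.34 in the treated mice and 8.73, 8.86 and 8.89 in the untreated mice (log2 intensity, in the order of replicates 1, 2 and 3, as for every gene below). The groups did not overlap, but the lowest treated and highest untreated values lay close together. The difference was 0.28 (95% interval -0.13 to 0.68, limma adjusted p = 0.914) and was 0.16 without treated replicate 3. Both further probe sets of the gene lay above 0, at 0.20 and 0.09. Slc2a3, encoding the high-affinity transporter GLUT3, measured 12.21, 11.74 and 12.27 in treated and 11.68, 11.08 and 12.06 in untreated replicates. Here untreated replicate 3 reached into the treated range. The difference was 0.47 (interval -0.20 to 1.13). It was 0.20 without untreated replicate 2, the lowest array, 0.69 without untreated replicate 3, and 0.24 as the mean of its probe sets. Of its other 3 probe sets, 1 was bright and gave 0.49, and the remaining dim ones gave -0.11 and 0.13.

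Of the hexokinases, which phosphorylate incoming glucose, Hk1 and Hk3 had higher means and Hk2 a lower mean in treated Tregs. Without treated replicate 2 all 3 lay above 0. Hk1, the broadly expressed form, measured 9.61, 9.12 and 9.83 in treated and 9.54, 9.17 and 9.28 in untreated replicates, a difference of 0.19 (interval -0.34 to 0.73), which was 0.04 without treated replicate 3 and 0.39 without treated replicate 2. Hk2, the form induced on T cell activation, measured 9.08, 7.78 and 9.42 in treated and 9.004, 9.47 and 8.24 in untreated replicates. Treated replicate 2 and untreated replicate 3 were low within their groups, and the difference of -0.15 (interval -1.28 to 0.99) was -0.48 without untreated replicate 3 and 0.35 without treated replicate 2. Hk3, a form typical of myeloid cells, measured 9.27, 8.82 and 8.94 in treated and 8.68, 8.90 and 7.98 in untreated replicates. Only untreated replicate 3 stood clearly below the rest. The difference was 0.49 (interval -0.15 to 1.13), and it was 0.22 without that replicate and 0.68 without untreated replicate 2.

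Of the other steps of upper glycolysis, Pfkl, Pfkp and Pfkm encode the liver, platelet and muscle subunits of phosphofructokinase, which commits sugar to glycolysis. Pfkl measured 8.26, 7.94 and 9.70 in treated and 8.51, 8.18 and 8.59 in untreated replicates. Its difference of 0.21 (interval -0.82 to 1.24) turned to -0.32 without treated replicate 3 and was 0.56 without treated replicate 2. Pfkp differed by 0.35 (interval -0.45 to 1.14), with 0.07 without untreated replicate 2 and 0.66 without untreated replicate 3, while 2 dimmer probe sets gave -0.37 and -0.07. Pfkm differed by 0.02 (interval -0.36 to 0.40), its arrays spanned 8.88 to 9.23, and the difference ran from -0.06 to 0.12 as arrays were left out. The aldolases, which split the 6-carbon sugar, differed by 0.18 (Aldoa) and 0.42 (Aldoc). All 5 probe sets of Aldoa and both of Aldoc lay above 0, and the second Aldoc probe set gave 0.52. Without treated replicate 3 the Aldoa difference turned to -0.10 and that of Aldoc was 0.16, and without untreated replicate 3 that of Aldoc was 0.74.

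Lower glycolysis was divided evenly, with 3 of its 6 measured members above 0 and 3 below. Tpi1, encoding triose phosphate isomerase, measured 9.84, 9.81 and 10.56 in treated and 9.78, 9.75 and 9.80 in untreated replicates. The groups did not overlap, but treated replicate 2 lay barely above untreated replicate 3, and only treated replicate 3 stood apart. The difference of 0.29 (interval -0.26 to 0.84) was 0.05 without that array. Pgk1, encoding phosphoglycerate kinase, which makes the first ATP of the pathway, measured 13.86, 13.92 and 13.81 in treated and 13.92, 14.28 and 13.80 in untreated replicates. Its difference of -0.14 (interval -0.56 to 0.28) was 0.0011 without untreated replicate 2, the highest array, and -0.24 without untreated replicate 3. Eno3, an enolase best known from muscle, measured 7.88, 7.93 and 8.64 in treated and 8.42, 8.80 and 8.36 in untreated replicates, a difference of -0.38 (interval -0.98 to 0.22). Treated replicates 1 and 2 lay below all untreated arrays and treated replicate 3 did not. The difference was -0.62 without treated replicate 3 (limma unadjusted p = 0.0225, adjusted p = 0.848) and -0.24 without treated replicate 1.

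Pkm, encoding the muscle-type pyruvate kinase that forms pyruvate, varied more among treated mice than between groups. It measured 10.44, 9.55 and 11.51 in treated and 10.53, 10.10 and 10.10 in untreated replicates. The difference was 0.26 (interval -0.82 to 1.34), 0.73 without treated replicate 2 and -0.25 without treated replicate 3. The remaining members of this section were Pgam1, encoding phosphoglycerate mutase, at 0.02 (interval -0.34 to 0.37, -0.03 to 0.07 as arrays were left out) and the neuronal enolase gene Eno2 at -0.24 (interval -0.95 to 0.47, -0.55 without untreated replicate 2 and -0.04 without untreated replicate 3).

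For lactate, the dehydrogenase genes had nearly equal group means at the probe sets used. The sign of the difference for 1 of the 2 lactate transporters turned with a single array. Ldha, whose product favours lactate formation, measured 13.04, 13.23 and 13.39 in treated and 13.04, 13.30 and 13.41 in untreated replicates. The groups covered nearly the same range, and the difference was -0.03 (interval -0.45 to 0.39), which turned to 0.02 with quantile normalization and to 0.06 with age as a covariate, and ran from -0.14 to 0.05 as arrays were left out. Ldhb, the form that favours lactate use, differed by -0.04 (interval -0.54 to 0.47), with -0.17 without treated replicate 3 and 0.16 without treated replicate 1. The other probe sets of Ldhb gave larger differences below 0, at -0.28, -0.13 and -0.52. Slc16a3, encoding the lactate exporter MCT4, measured 5.17, 5.49 and 5.37 in treated and 4.88, 4.92 and 4.80 in untreated replicates. All treated values lay above all untreated ones, with a difference of 0.48 (interval 0.10 to 0.85, fold 1.39, limma adjusted p = 0.914). This was the only member at an unadjusted p under 0.05 (limma, 0.0195), and that p was 0.0559 without untreated replicate 1 and 0.0667 without untreated replicate 3. Its probe set lay below the median of 6.45 over all probe sets on every array. Slc16a1, encoding MCT1, measured 8.96, 6.66 and 9.02 in treated and 9.13, 8.86 and 8.08 in untreated replicates. Treated replicate 2 was the low array, and the difference of -0.48 (interval -1.99 to 1.04) turned to 0.30 without it, and was -0.88 without treated replicate 3.

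Regulators of the pathway gave no common direction. Hif1a measured 12.74, 11.97 and 13.01 in treated and 12.71, 13.26 and 12.77 in untreated replicates, a difference of -0.34 (interval -1.05 to 0.37). Treated replicate 2 was the lowest array, and without it the difference was -0.04, while without treated replicate 3 it was -0.56. A second bright probe set of Hif1a gave 0.05. Pfkfb3 and Pfkfb4 encode bifunctional enzymes that set the level of fructose 2,6-bisphosphate, the activator of phosphofructokinase. Pfkfb3 differed by -0.01 (interval -0.43 to 0.41), with -0.12 to 0.09 as arrays were left out. Pfkfb4 measured 9.11, 8.23 and 10.00 in treated and 8.59, 8.85 and 7.13 in untreated replicates. The groups overlapped, and the difference of 0.92 was 0.39 without untreated replicate 3 and 1.36 without treated replicate 2.

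The 3 genes of the pyruvate dehydrogenase step had lower means in treated Tregs, each short of the test, and Pdhb did not without treated replicate 2. Pdha1, the catalytic E1 alpha subunit, measured 12.36, 11.98 and 12.33 in treated and 12.41, 12.39 and 12.63 in untreated replicates. The groups did not overlap, though treated replicate 1 and untreated replicate 2 lay close together. The difference was -0.25 (interval -0.67 to 0.17), a second probe set gave -0.31, and without treated replicate 2 the difference was -0.13. Pdhb, the E1 beta subunit, differed by -0.15 (interval -0.87 to 0.57), with -0.42 without untreated replicate 2 and 0.09 without treated replicate 2. Pdk1, a kinase that switches the complex off, measured 8.99, 7.53 and 8.08 in treated and 9.04, 9.28 and 7.72 in untreated replicates. Untreated replicate 3 lay in the treated range, and the difference of -0.48 (interval -1.66 to 0.71) was -0.96 without it and -0.14 without treated replicate 2.

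In the pentose phosphate branch, Pgd, the second NADPH-producing enzyme, measured 11.93, 11.29 and 12.14 in treated and 11.45, 11.94 and 10.46 in untreated replicates. Untreated replicate 3 was the lowest array in all 4 of its probe sets, whose differences ran from 0.46 to 0.57. The difference of 0.50 (interval -0.45 to 1.46) was 0.13 without that replicate and 0.83 without untreated replicate 2. Taldo1, encoding transaldolase, differed by 0.18 (interval -0.47 to 0.83) and reached its extremes in treated replicates 2 and 3, at 10.33 and 11.40. Its difference was 0.48 without treated replicate 2 (limma unadjusted p = 0.0206, adjusted p = 0.837) and -0.05 without treated replicate 3. Tkt, encoding transketolase, measured 12.99, 12.62 and 12.68 in treated and 13.02, 12.94 and 12.18 in untreated replicates. Its difference was 0.05 (interval -0.56 to 0.66) and turned to -0.22 without untreated replicate 3, with 0.20 without untreated replicate 1.

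**Figure D2:**
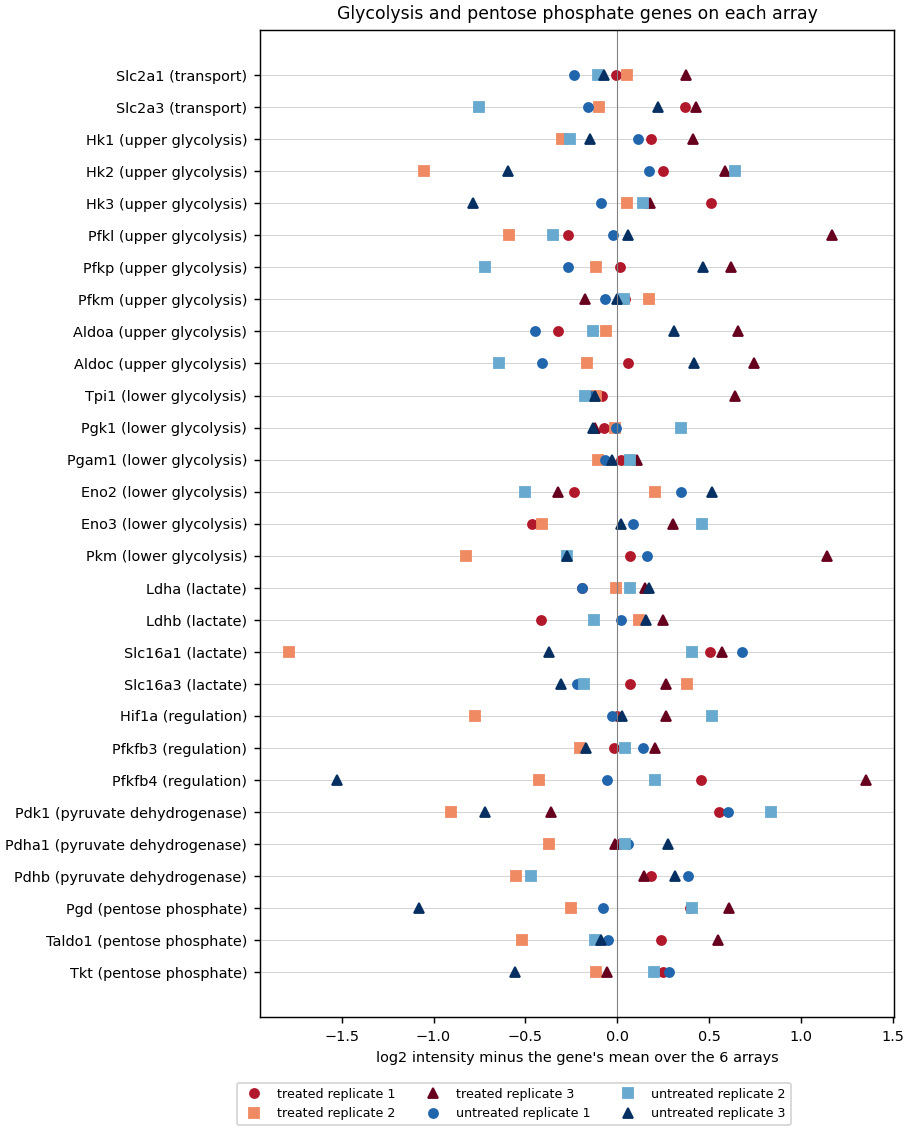
Log2 intensity of each measured member on each of the 6 arrays, minus that gene's mean over the arrays, with treated arrays in reds and orange and untreated arrays in blues. Treated replicate 3 is the highest array for 15 of the 29 genes and treated replicate 2 the lowest for 12.

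The clearest pattern in these genes lay among the treated mice and not between the groups. Treated replicate 3 was the highest of the 6 arrays for 15 of 29 members (51.7%), against 21.8% of all genes. Treated replicate 2 was the lowest for 12 members (41.4%), against 21.7% of all genes. Over the genes with a group mean at or above the median of all probe sets, these shares were 28.0% and 27.9%. The 2 arrays were singled out by the members' own values, so a gap between them follows in part from that choice. Treated replicate 2 was taken at 29 days of age and 12 days after treatment, and treated replicate 3 at 28 and 11. Mouse, age and time after treatment cannot be told apart in this gap. With these 2 arrays set against each other, 25 members (86.2%) were higher in treated replicate 3, with a median gap of 0.70. Over all genes the share was 46.8% and the median gap -0.05, and over the genes with a group mean at or above the median of all probe sets they were 58.4% and 0.15. The largest gaps were those of Slc16a1 at 2.35, Pkm at 1.96, Pfkfb4 at 1.77, Pfkl at 1.76 and Hk2 at 1.64. The 4 members against this pattern were Pfkm, Pgk1, Eno2 and Slc16a3. In 28 of 29 members (96.6%) the wider of the 2 within-group ranges exceeded the difference between the groups, which also held for 96.1% of all genes. The exception was Slc16a3. Over all probe sets, treated replicate 2 correlated with the other arrays at 0.949 to 0.962, and the other pairs of arrays gave 0.953 to 0.989.

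The arrays also differed in their control probe sets. Control probe sets at the 3′, middle and 5′ parts of Gapdh and Actb show how far labelled RNA reached towards the 5′ end. The 3′ to 5′ gap of Gapdh was 3.38, 3.65 and 4.10 in treated and 3.23, 3.87 and 2.02 in untreated replicates (log2). That of Actb, the beta-actin gene, was 1.42, 1.94 and 3.62 in treated and 1.31, 1.95 and 0.92 in untreated replicates. Treated replicate 3 thus had the largest gap and untreated replicate 3 the smallest for both genes. As for the member itself, Gapdh, which forms the first high-energy phosphate of lower glycolysis, read 12.92, 12.36 and 13.57 in treated and 12.79, 12.45 and 12.98 in untreated replicates at its 3′ probe set. The group means there were 12.95 ± 0.60 and 12.74 ± 0.27 (SD, n = 3), a gap of 0.21, while the middle probe set gave -0.07 and the 5′ probe set -0.46. The part of RNA length in the members' values was not tested.

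**Figure D3:**
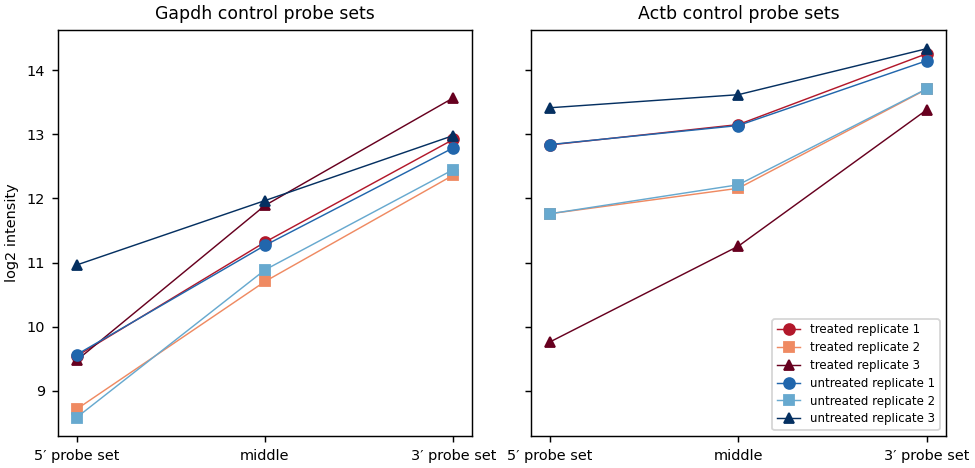
Log2 intensity of the 5′, middle and 3′ control probe sets of Gapdh and Actb on each array, 1 line per array. Treated replicate 3 has the steepest lines, with a 3′ to 5′ gap of 4.10 for Gapdh and 3.62 for Actb, and untreated replicate 3 the flattest, at 2.02 and 0.92.

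Several members also had a low value in untreated replicate 3, the array with the least myeloid signal. Macrophage and monocyte markers (13 of 13 measured) averaged 9.18, 8.14 and 9.12 in treated and 8.65, 8.78 and 6.996 in untreated replicates. Neutrophil markers (10 of 12 measured) averaged 11.73, 10.29 and 11.12 in treated and 11.20, 10.95 and 6.72 in untreated replicates. Thus 5 of the 6 arrays held strong neutrophil signal by the mean of the list. Ngp, a granule protein gene, was at 13.81 to 14.56 in them, against 6.33 in untreated replicate 3. Of the 10 measured markers, 8 had their lowest value in untreated replicate 3. Elane and Cxcr2 did not, and Cxcr2 stayed between 6.63 and 6.92 on all 6 arrays. Mpo was also low in treated replicate 2, at 6.91. Compared with the mean of the other 2 untreated arrays, untreated replicate 3 was lower by 1.60 for Pfkfb4, by 1.44 for Pdk1, by 1.24 for Pgd, by 1.00 for Hk2, by 0.91 for Slc16a1, by 0.81 for Hk3 and by 0.80 for Tkt. It was higher by 0.96 for Pfkp, by 0.94 for Aldoc and by 0.68 for Slc2a3. In all, 12 of 29 members were lower there than in both other untreated arrays (41.4%, against 31.3% of all genes), and 6 had there their lowest value of all 6 arrays (against 13.3%). Over the genes with a group mean at or above the median of all probe sets, the first of these shares was 34.7%. In such bulk samples fewer cells of a type and less RNA per cell cannot be told apart. The part of other cells in these values was not tested.

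**Figure D4:**
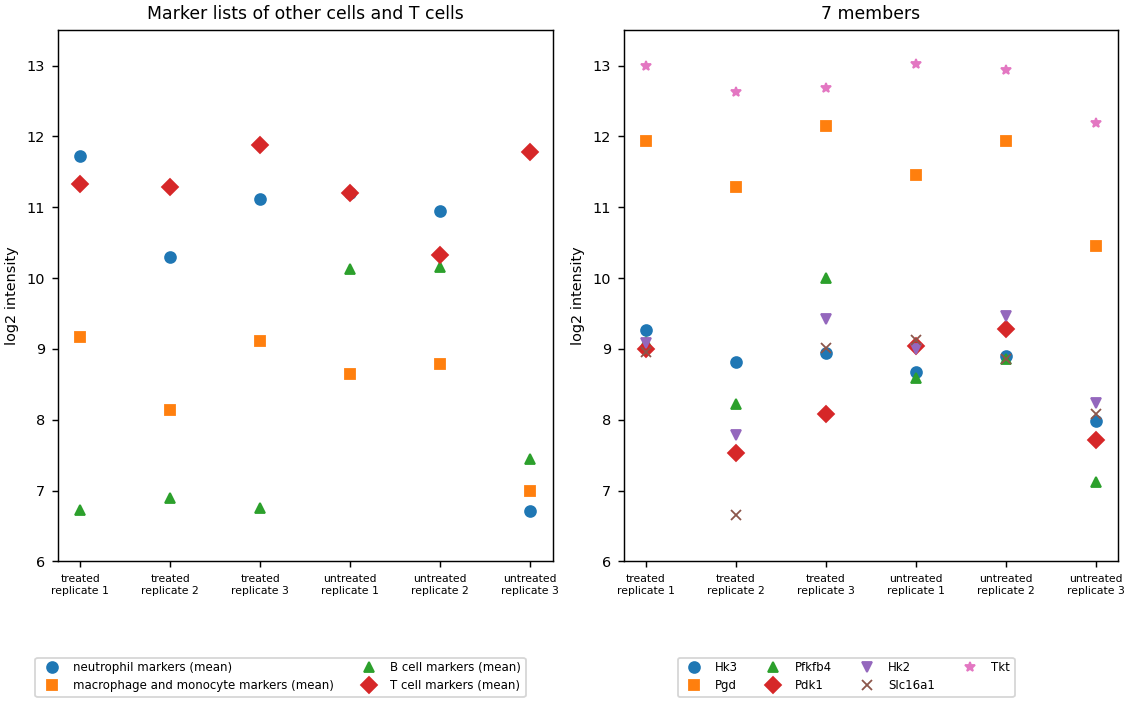
Left, mean log2 intensity of marker lists of neutrophils, macrophages and monocytes, B cells and T cells on each array. Right, log2 intensity of 7 members chosen because they were lower in untreated replicate 3 than in the other 2 untreated arrays. Members that were higher there, such as Pfkp, are not drawn. Neutrophil markers fall to 6.72 in untreated replicate 3 and Pfkfb4 to 7.13.

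Markers of the sorted population were present on all arrays, but the defining one differed between the groups by more than any member did. Foxp3 measured 11.43, 11.46 and 12.44 in treated and 10.75, 9.95 and 11.07 in untreated replicates. The groups did not overlap, and the difference was 1.19 (interval 0.30 to 2.08, limma unadjusted p = 0.0161, adjusted p = 0.914). Cd3e, a T cell receptor complex subunit, also did not overlap, at 11.97, 12.02 and 12.16 against 11.82, 11.62 and 11.78. Cd4 measured 9.77, 9.89 and 10.41 in treated and 9.86, 9.10 and 10.01 in untreated replicates. Its groups overlapped, as did those of Cd3d, Cd3g and Cd5, with differences of 0.52, 0.69 and 0.11. The groups also overlapped for the other Treg markers, Il2ra (-0.05), Ikzf2 (0.04) and Ctla4 (0.46). The part of these differences in the members' values was not tested, and the T cell list was lowest in untreated replicate 2, at 10.32. B cell markers (10 of 11 measured) averaged 6.72 to 6.89 in the treated mice and 10.12, 10.15 and 7.45 in the untreated mice. Erythroid markers (8 of 10 measured) averaged 7.80 to 8.74 in the treated mice and 8.77, 8.60 and 6.46 in the untreated ones. The CD8 genes Cd8a and Cd8b1 stayed between 6.04 and 7.16.

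Within each array, 7 pairs of related genes were set against each other. Such a ratio is unchanged by a single scaling factor per array, though steps that depend on intensity can alter it. The ratio of Pfkfb3 to Pfkfb4 had a lower mean in treated Tregs, with a difference of -0.93 (exact two-sided permutation p = 0.3, adjusted p = 0.98 over the 7 pairs). That of Slc16a1 to Slc16a3 differed by -0.95, and by -0.11 without treated replicate 2 (exact permutation p = 0.4, adjusted p = 0.98). The ratio of Ldha to Ldhb, the pair that sets the direction of lactate metabolism, differed by 0.0015 with a spread of 0.19 in treated and 0.20 in untreated replicates (SD, n = 3). For the remaining pairs the differences were 0.34 for Hk1 to Hk2, -0.13 for Pfkl to Pfkp, -0.19 for Slc2a1 to Slc2a3 and -0.24 for Aldoa to Aldoc. With 3 against 3 samples the smallest exact p is 0.1, so no pair could pass 0.05.

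**Figure D5:**
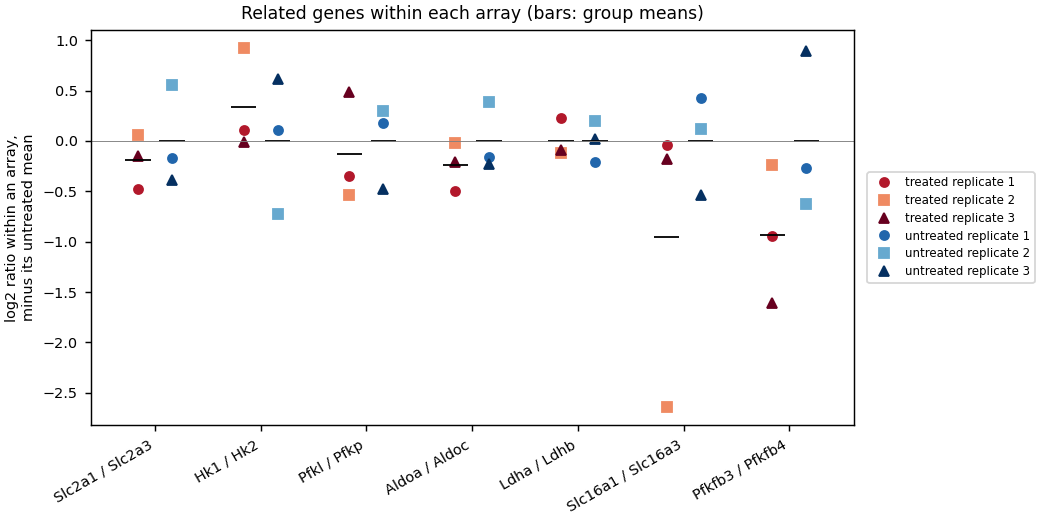
Log2 ratio of the first to the second gene of each pair on each array, minus the mean ratio of the untreated arrays, with group means as bars. The treated mean of Slc16a1 to Slc16a3, at -0.95, lies well above the value of treated replicate 2 and below those of the other treated arrays. For Ldha to Ldhb the group means differ by 0.0015.

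Other genes of the same metabolism were read from lists of further enzymes and regulators, and none passed after adjustment over all genes. Their counts stand beside the shares of all genes, of which 58.5% lay above 0 and 41.5% below, and 1.82% were higher and 3.17% lower at an unadjusted p under 0.05. Of 24 further glycolytic and gluconeogenic genes, 17 had a difference above 0 (70.8%, against 58.5% of all genes), with a median of 0.13, and 1 was higher and 1 lower at an unadjusted p under 0.05. The higher one was Adpgk, an ADP-dependent glucokinase gene, at 7.98, 7.42 and 7.47 in treated and 7.11, 6.62 and 5.72 in untreated replicates. Its difference was 1.14 (interval 0.29 to 1.99, limma adjusted p = 0.914), and 0.76 without untreated replicate 3, the lowest array. A second Adpgk probe set gave 0.62 (interval -0.75 to 1.99), with overlapping groups. The lower one was Bpgm, encoding the enzyme that makes 2,3-bisphosphoglycerate, at 10.33, 9.42 and 10.21 against 10.71, 10.94 and 10.36. Its difference of -0.68 (interval -1.36 to -0.01) was -0.84 without untreated replicate 3 and -0.40 without treated replicate 2. Slc2a6, a further sugar transporter gene, differed by 0.57, with 0.22 without treated replicate 3 and 0.86 without treated replicate 1.

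The further pentose phosphate and ribose genes had 10 of 12 differences below 0 (against 41.5% of all genes) and a median of -0.12, with 1 higher and 3 lower at an unadjusted p under 0.05 (against 1.82% and 3.17% of all genes). Prps1, encoding the synthetase that turns ribose 5-phosphate into the precursor of nucleotides, measured 10.38, 9.75 and 10.08 in treated and 10.89, 11.08 and 10.78 in untreated replicates. The groups did not overlap, and the difference was -0.85 (interval -1.33 to -0.36, limma adjusted p = 0.914) and -0.91 without untreated replicate 3. Tktl1, a transketolase-like gene, measured 10.08, 10.71 and 9.45 in treated and 11.29, 10.90 and 11.77 in untreated replicates, a difference of -1.24 (interval -2.08 to -0.39). H6pd, which makes NADPH inside the endoplasmic reticulum, went the other way at 9.05, 9.14 and 9.08 against 8.50, 8.63 and 8.24, a difference of 0.63 (interval 0.24 to 1.03). The third lower gene was Prps2, at -0.79, named after its value was seen. Prps1, Tktl1 and H6pd kept their direction without each of the 6 arrays in turn.

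The genes of pyruvate entry and its dehydrogenase had 12 of 14 differences below 0 (against 41.5% of all genes) and a median of -0.22, with 0 higher and 1 lower at an unadjusted p under 0.05 (against 1.82% and 3.17%). The lower one was Mpc1, a subunit of the mitochondrial pyruvate carrier, at 8.55, 7.95 and 8.62 in treated and 9.004, 8.74 and 9.05 in untreated replicates. The groups did not overlap, and the difference of -0.56 (interval -1.09 to -0.03) was -0.35 without treated replicate 2. Pdp1, a phosphatase that switches pyruvate dehydrogenase on, differed by -0.47 and Pdhx, a structural subunit of the complex, by -0.36. Without treated replicate 2 they differed by -0.21 and -0.13, and Pdhx by -0.57 without treated replicate 3. The whole list averaged 7.61, 7.22 and 7.74 in treated and 7.76, 7.77 and 7.61 in untreated replicates. Treated replicate 2 was thus its lowest array, and treated replicate 3 lay close to the highest untreated ones. The count of differences below 0 was not repeated without treated replicate 2.

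The citric acid cycle list had 7 of 15 members above 0 (46.7%, against 58.5% of all genes) and a median of -0.01, with 0 at an unadjusted p under 0.05. Idh3g, a subunit of isocitrate dehydrogenase, differed by 0.48 and by 0.31 without treated replicate 3, and a second bright probe set gave 0.08. Suclg2 and Suclg1, subunits of succinyl-CoA ligase, differed by -0.54 and -0.31. Suclg2 differed by -0.33 without untreated replicate 2. Of 20 regulators of glycolysis, 11 were above 0 (55.0%, against 58.5% of all genes), the median was 0.05, and 0 had an unadjusted p under 0.05. Myc, the growth regulator, measured 6.34, 6.43 and 7.55 in treated and 6.72, 8.35 and 7.83 in untreated replicates, a difference of -0.86 (interval -2.01 to 0.28). It was -1.32 without untreated replicate 1 (limma unadjusted p = 0.0191) and -0.51 without untreated replicate 2. The kinase gene Akt1 and the mTORC1 inhibitor gene Tsc2 differed by 0.37 and 0.46, and by 0.15 and 0.12 without treated replicate 3, while Tsc2 differed by 0.70 without treated replicate 2. The 2 opposing probe sets of Akt1 were dim and lay below 0.

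Of 13 other HIF-1 targets, 5 were above 0 (38.5%, against 58.5% of all genes), the median was -0.03, and 1 was higher at an unadjusted p under 0.05 (against 1.82% of all genes). This was Ndrg1, a stress-responsive gene, at 11.41, 11.85 and 11.72 in treated and 11.10, 11.03 and 11.35 in untreated replicates, a difference of 0.50 (interval 0.07 to 0.94). Of its other 4 probe sets, 2 gave 0.43 and 0.06 and 2 gave -0.03 and -0.41, so the direction depended on the probe set. Its unadjusted p stayed under 0.05 in 2 of the 6 fits that each left out an array. Ero1a, an endoplasmic reticulum oxidase gene, differed by -0.32 and the peptide hormone gene Adm by -0.30, and each had another probe set above 0. Without untreated replicate 2 Adm differed by -0.14, and without treated replicate 1 Ero1a differed by -0.49.

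Calls at an unadjusted p under 0.05 also came and went with single arrays. When each of the 6 arrays was left out in turn, Prps1, H6pd and Tktl1 stayed under 0.05 in all 6 fits, Adpgk in 5, and Bpgm and Mpc1 in 3 each. Among members, Slc16a3 did so in 4 of 6, and Hk3, Slc2a3, Eno3 and Taldo1 came under 0.05 in 1 fit each. Of the further genes named, Slc2a6, Pdhx, Idh3g and Suclg2 did so in 1 fit each and Myc in 2. The further genes were named for the smallest p of their lists on these same arrays, so these counts are not separate support.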

How the data were processed

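Gene expression was measured in splenic Tregs of 3 treated and 3 untreated mice, 1 array per mouse. The p-values therefore measure the spread between arrays, in which mouse and sample handling cannot be told apart. Per the labels' protocols, total RNA was extracted with Trizol and amplified for 2 rounds before biotin labelling, which can shorten the labelled RNA towards its 3′ end. The authors' deposited values are RMA intensities on a linear scale (5.47 to 29585), made in GenePattern per the series' design text; its version was not stated there. RMA makes arrays alike, so a change common to all genes cannot be seen. Array medians ran from 85.3 to 92.4, and the number of arrays limits the precision.

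Log2 was taken and limma 3.58.1 (R 4.3.3, lmFit and eBayes) was fitted to all 45037 probe sets after leaving out 64 control probe sets. Symbols came from the platform annotation, updated through gene identifiers for 34741 of the 34945 probe sets with 1 symbol; 932 had several and 9160 none, and no gene was named from these. Each gene was read from its probe set with the highest mean, and p-values were adjusted by Benjamini-Hochberg over 18193 genes, with a threshold of 0.05. Of the 29 members, 19 had several probe sets, and in 6 (Slc2a3, Hk1, Pfkp, Hif1a, Pfkfb3 and Pdk1) another probe set had the opposite sign. The probe sets of Aldoa, Pgk1, Pgd and Tkt end in x_at, which marks possible cross-hybridization. The fit was checked on simulated data.

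Values on every array are given for the 8 members with the smallest p and for Slc2a1, Slc2a3, Hk1, Hk2, Hk3, Pfkl, Gapdh, Pgk1, Pkm, Ldha, Slc16a3, Hif1a, Pdk1, G6pdx, Pgd and Tkt where measured (Slc16a1 was added after its values were seen), and values or differences for the 3 genes of each further list with the smallest p; Foxp3, Cd4, Cd3e and Myc were always named. Members and lists were chosen with earlier results of these data known. Alternatives were a replicate block, age as a covariate, quantile normalization, median centring, a pseudocount of 16, a filter on dim probe sets, averaging all probe sets of a gene, trend and robust variances, array weights and leaving out each array; for the genes of the further lists and the remaining members, leaving out each array was chosen after seeing the data. Figures were drawn with matplotlib 3.10.9.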

Additional observations from a re-analysis of the deposited data

How the results depend on the processing

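No member passed an adjusted p of 0.05 under any of the 15 alternatives. The number at an unadjusted p under 0.05, 1 in the main comparison, was 3 with the replicate block (Slc2a3, Aldoc and Slc16a3, all higher), 3 with array weights, 2 with the mean of the probe sets and 0 without dim probe sets, a filter that removes Slc16a3; it was 0 to 2 when single arrays were left out. The share of all genes at that threshold was 4.99% in the main comparison, 7.37% with the replicate block, 6.30% with array weights, 4.94% with the mean of the probe sets, 5.38% without dim probe sets, and 2.32% to 6.63% without single arrays. Same-numbered arrays did not pair throughout: their deviations from the group means correlated at 0.51, 0.01 and 0.10, and treated replicate 2 correlated best with untreated replicate 3. The replicate block changed no adjusted call. The members' median ran from -0.10 without treated replicate 3 to 0.30 without treated replicate 2, and from 0.02 to 0.13 under the other settings with all arrays; the median of all genes was 0.003 without treated replicate 2. Quantile normalization put 19 members above 0 and median centring 15, against 17.

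Of 269 differences of named members under the alternatives, 13 changed sign. With all arrays these were Ldha (0.060 with age as a covariate, 0.016 with quantile normalization), Tkt (-0.048 with age) and Hk2 (0.11 with array weights). Leaving out single arrays gave ranges of -0.48 to 0.35 for Hk2, -0.32 to 0.56 for Pfkl, -0.25 to 0.73 for Pkm, -0.14 to 0.055 for Ldha, -0.22 to 0.20 for Tkt and -0.24 to 0.0011 for Pgk1. Among the other 11 members, for which leaving out arrays was chosen after seeing the data, the ranges that crossed 0 were -0.88 to 0.30 for Slc16a1, -0.42 to 0.089 for Pdhb, -0.053 to 0.48 for Taldo1, -0.10 to 0.39 for Aldoa, -0.17 to 0.16 for Ldhb, -0.12 to 0.087 for Pfkfb3, -0.057 to 0.12 for Pfkm and -0.032 to 0.073 for Pgam1. Ratios that changed sign were Ldha to Ldhb (-0.00099 with a pseudocount of 16, -0.11 to 0.098 without single arrays), Pfkl to Pfkp (0.22 with the mean of the probe sets, -0.44 to 0.067), Slc2a1 to Slc2a3 (-0.38 to 0.088) and Hk1 to Hk2 (-0.023 to 0.65). The cause was not tested.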

Other observations

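The Actb control probe sets read almost alike in same-numbered treated and untreated arrays 1 and 2. The 5′ probe set was at 12.84 in treated and 12.84 in untreated replicate 1, and at 11.76 in treated and 11.76 in untreated replicate 2, but at 9.76 and 13.42 in treated and untreated replicate 3. Over all probe sets, treated and untreated replicate 1 correlated at 0.989, the highest of all pairs of arrays.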
